A study of Mus musculus with 15 samples.

Results

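Basement membranes are thin sheets of matrix that lie under endothelial cells and around every cardiomyocyte, smooth muscle cell and pericyte of the heart. The 9 genes described here encode the non-collagen backbone of that sheet, 6 laminin chains (Lama2, Lama4, Lama5, Lamb1, Lamb2 and Lamc1), both nidogens (Nid1 and Nid2) and perlecan (Hspg2). They were taken by symbol from a table of 47069 genes, and each symbol matched 1 identifier. Messenger RNA of the left ventricle was counted in 15 libraries from C57BL/6 mice. In 5 PBS and 5 rHCI libraries the mouse had a myocardial infarct and was injected in the myocardium on day 7, either with PBS, a saline, or with rHCI, a hydrogel of recombinant human collagen type I, and the heart was taken 2 days later. The 5 Sham libraries came from sham-operated mice, age matched at 10 weeks old, that received no treatment, so the effect of the infarct and that of the injection cannot be told apart against Sham. No transgene or gene deletion is named for any group.

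A laminin molecule is a cross of 1 alpha, 1 beta and 1 gamma chain. The alpha chain carries the sites that cells hold on to through integrins and dystroglycan, and the beta and gamma chains complete the coiled core. Laminin networks form on the cell surface, nidogens link them to the collagen IV network, and perlecan, a heparan sulfate proteoglycan, binds both and holds growth factors. Laminin with the alpha 2 chain surrounds muscle fibres, and loss of Lama2 causes a congenital muscular dystrophy, whereas alpha 4 and alpha 5 are known mainly from blood vessel walls. In the text a level is given in CPM, counts relative to the library total scaled for composition by the trimmed mean of M values (TMM), and a difference as a log2 fold change from edgeR's quasi-likelihood test, called when its p-value adjusted over all genes was under 0.05.

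Total counts were 32978702 to 103356830 per library. The 8 cardiomyocyte markers, Myh6 and Tnnt2 among them, summed to 59840 to 69050 CPM in Sham, 28230 to 43030 in PBS and 30730 to 47800 in rHCI libraries, so all libraries hold heart muscle as labelled. In bulk tissue fewer cells of a type and less RNA per cell cannot be told apart. PBS 6 stood apart by 5 lung epithelium markers, surfactant genes among them, at 68.4 CPM summed, against 0.125 or less in every other library. All 9 genes had enough counts to be tested in every comparison.

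In Sham hearts the chain levels differed widely. Levels are compared here per kilobase of the union of annotated exons, as mean ± SD over 5 libraries. Lamb2, the beta 2 chain, was the most abundant with 80.1 ± 7.75 CPM per kb, followed by Hspg2 with 41.1 ± 7.38, Lamc1 with 28.7 ± 2.59 and Nid1 with 22.8 ± 2.42. Lamb1 had 15.0 ± 1.66 and Lama5 14.4 ± 3.30 CPM per kb, a gap well inside their spread. Lama2 had 9.23 ± 1.08 and Lama4 8.97 ± 0.897, which were also within their spread, and Nid2 was lowest with 4.86 ± 0.646. The order in the middle depends on the length used. Per kilobase of the principal coding transcript, a length chosen after the data were seen, the alpha chains stood at 17.9 ± 1.79 for Lama4, 15.7 ± 1.83 for Lama2 and 14.4 ± 3.30 for Lama5, while Lamb2, Hspg2 and Lamc1 kept the top and Nid2 the bottom of the order.

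The comparison of PBS with Sham asked how the infarcted ventricle differed from one without an infarct. Nidogens and the gamma 1 chain rose about 2-fold or more, Lama4 and Lamb1 rose less, and Lama5 and Lamb2 fell. Lama2 rose slightly and Hspg2 did not pass. In numbers, 6 of the 9 genes were higher, 2 lower and 1 not called, where 36.5% of all 16207 genes tested were called higher and 34.9% lower, 71.4% in all, so most genes of any kind were called and the count by itself says little about these 9. Their median log2 fold change was 0.40, against −0.01 over all genes tested. The groups did not overlap for 7 of the 9 genes, and for 59% of all genes. Under plain library totals the median difference of all genes shifted by 0.27 on the log2 scale. On that scale 7 of the 9 genes were called higher, Hspg2 among them, and 1 lower, Lama5, while 8938 genes of all were called higher and 2610 lower in place of 5921 and 5653. The sample descriptions carry a number that the labels do not explain and that is the same in 12 of the 15 libraries. Among the libraries with that number, 4 Sham and 4 PBS, 6 of the 9 genes were higher and 2 lower, as in all libraries.

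**Figure D1:**
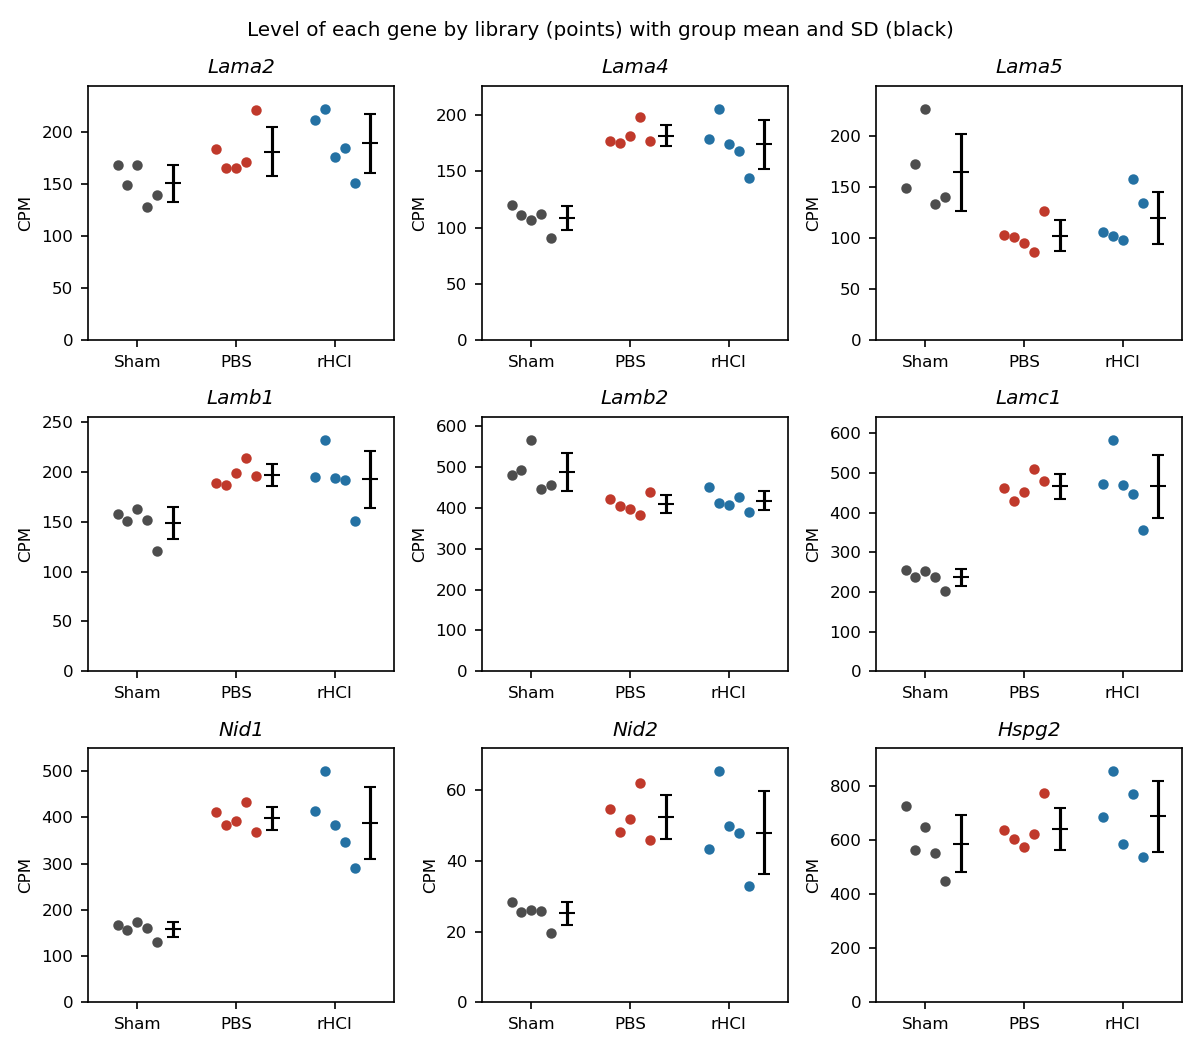
Level of each gene in CPM (vertical axes, from 0) in the 5 libraries of each group (points), with the group mean and SD in black. Nid1 lies between 131 and 175 CPM in Sham and between 369 and 434 in PBS libraries, while the Hspg2 groups overlap. Levels are TMM-scaled, and scaled by library total Lamb2 does not fall.

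The gamma 1 chain, part of most laminins, rose in every infarcted library. Lamc1 (ENSMUSG00000026478; GRCm38 chromosome 1, 153218922 to 153332786, minus strand) had 256, 239, 253, 237 and 202 CPM in Sham 16 to Sham 20. In PBS 2, 6, 9, 12 and 14 it had 462, 428, 451, 509 and 480 CPM. The lowest PBS library was thus far above the highest Sham library. Its log2 fold change was 0.97 ± 0.07 (SE; adjusted p = 5.99e-08 by edgeR), or 1.96-fold.

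Among the alpha chains Lama4 and Lama5 moved in opposite directions. Lama4 (ENSMUSG00000019846; chromosome 10, 38965515 to 39110188, plus strand), the alpha 4 chain of vessel walls, had 120, 111, 107, 112 and 90.7 CPM in Sham 16 to Sham 20. In PBS 2, 6, 9, 12 and 14 it had 176, 175, 181, 198 and 177 CPM, so that 4 of the PBS libraries lay within a few CPM of each other and PBS 12 stood above them. Its log2 fold change was 0.74 ± 0.07 (adjusted p = 5.99e-07 by edgeR), or 1.67-fold. Lama5 (ENSMUSG00000015647; chromosome 2, 180176373 to 180225859, minus strand), the other vascular alpha chain, had 149, 172, 226, 134 and 140 CPM in Sham 16 to Sham 20. In PBS 2, 6, 9, 12 and 14 it had 103, 101, 94.9, 86.3 and 127 CPM. Sham 18 was high and PBS 14 came close to the lowest Sham library without reaching it. It changed by −0.68 ± 0.14 on the log2 scale (adjusted p = 0.000541 by edgeR), and it ranged from −0.76 to −0.55 as single libraries were left out.

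Lama2 (ENSMUSG00000019899; chromosome 10, 26980036 to 27619758, minus strand), the alpha chain of muscle fibres, had 129 to 169 CPM in Sham and 166 to 221 in PBS libraries. The ranges overlap, and PBS 14 stood highest. Its log2 fold change was 0.26 ± 0.09 (adjusted p = 0.0215 by edgeR). It did not pass without Sham replicate 19 (0.21, adjusted p = 0.0608) or without Sham replicate 20 (0.23, adjusted p = 0.0544), nor when tested for more than a 1.2-fold change (adjusted p = 0.394). The cardiomyocyte markers, which come from the cells that Lama2 laminin surrounds, all fell, 8 of 8, and their median log2 fold change was −0.93. Their part in the Lama2 value was not tested.

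The beta chains also parted. Lamb1 (ENSMUSG00000002900; chromosome 12, 31265234 to 31329644, plus strand) had 158, 151, 163, 152 and 121 CPM in Sham 16 to Sham 20 and 189, 187, 199, 214 and 196 CPM in PBS 2, 6, 9, 12 and 14. Sham 20 was the low library, and the groups did not overlap. Lamb1 changed by 0.40 ± 0.07 on the log2 scale (adjusted p = 0.000253 by edgeR). Lamb2 (ENSMUSG00000052911; chromosome 9, 108479736 to 108490530, plus strand), the beta chain of mature vessel and synaptic basement membranes, had 480, 491, 565, 445 and 456 CPM in Sham 16 to Sham 20 and 421, 404, 396, 382 and 439 CPM in PBS 2, 6, 9, 12 and 14. Lamb2 changed by −0.26 ± 0.07 on the log2 scale (adjusted p = 0.0037 by edgeR), but 0.02 when libraries were scaled by their total, so its fall holds only relative to the bulk of genes. Tested for more than a 1.2-fold change, it gave an adjusted p of 0.432.

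Sequence before the start of these genes was available in RefSeq's promoter table (GRCm38.p6) for 6 of the 9 genes. The windows of both beta chains, which moved apart, and of the genes with the largest rise (Nid1) and fall (Lama5) are shown, 5′ to 3′, cut where the GENCODE M21 gene begins. Capitals mark GGGCGG, the GC box, or CCGCCC, the same letters on the other strand.
Lamb1, chr12:31265043-31265233, plus strand: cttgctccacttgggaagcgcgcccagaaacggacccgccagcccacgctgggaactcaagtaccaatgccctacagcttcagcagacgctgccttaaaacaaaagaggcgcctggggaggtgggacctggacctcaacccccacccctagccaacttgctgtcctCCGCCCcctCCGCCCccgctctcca
Lamb2, chr9:108479612-108479735, plus strand: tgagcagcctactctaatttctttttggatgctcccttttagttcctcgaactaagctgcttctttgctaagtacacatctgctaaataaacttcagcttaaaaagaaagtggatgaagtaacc
Nid1, chr13:13437352-13437550, plus strand: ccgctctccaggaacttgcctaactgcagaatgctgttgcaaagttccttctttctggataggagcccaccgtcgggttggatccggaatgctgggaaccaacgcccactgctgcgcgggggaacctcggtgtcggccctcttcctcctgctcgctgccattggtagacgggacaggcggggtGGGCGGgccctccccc
Lama5, chr2:180225860-180226109, minus strand: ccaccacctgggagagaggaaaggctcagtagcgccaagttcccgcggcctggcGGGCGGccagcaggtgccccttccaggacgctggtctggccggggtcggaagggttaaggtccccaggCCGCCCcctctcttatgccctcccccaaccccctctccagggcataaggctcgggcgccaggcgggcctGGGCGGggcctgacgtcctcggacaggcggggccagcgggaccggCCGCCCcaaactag
The Lama5 window held 4 GC boxes, that of Lamb1 2 and that of Nid1 1, and the Lamb2 window held 0. Among all 32851 windows of 250 bases before a gene start in the table, 32.7% held a GC box on either strand. Counted over 250 bases, Hspg2 had 5 and Lama2 0. The CCAAT box was in the windows of Lamb1 and Nid1 and in 33.8% of all windows. TATAAA, on either strand, was in 0 of the 6 and in 12.4% of all, and the AP-1 site TGACTCA in 0 of the 6 and in 4.46% of all. GC content over 250 bases was 62% for Lamb1, 43.6% for Lamb2, 64.4% for Nid1 and 72.4% for Lama5, with a median of 52.4% over all windows. Genes that rose and genes that fell thus both include GC-rich windows with GC boxes.

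Both nidogens rose. Nid1 (ENSMUSG00000005397; chromosome 13, 13437551 to 13512269, plus strand), the main linker between laminin and collagen IV, had 168, 157, 175, 161 and 131 CPM in Sham 16 to Sham 20. In PBS 2, 6, 9, 12 and 14 it had 412, 384, 393, 434 and 369 CPM. Every PBS library lay far above the highest Sham library. The log2 fold change of 1.33 ± 0.08 (adjusted p = 7.125e-09 by edgeR), or 2.515-fold, was the largest of the 9. Nid2 (ENSMUSG00000021806; chromosome 14, 19751265 to 19811787, plus strand), its less abundant paralogue, had 19.5 to 28.5 CPM in Sham and 46.0 to 61.9 in PBS libraries, without overlap. Its log2 fold change was 1.06 ± 0.10 (adjusted p = 8.29e-07 by edgeR). Exons of Nid2 overlap those of Rtraf on the opposite strand, exons of Nid1 those of Gm48682 and exons of Lama2 those of Gm48084. The strand setting of the counting is not given in the sources used here, so reads of these overlaps cannot be assigned with certainty.

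Perlecan, the second most abundant of the 9 genes per kilobase in Sham hearts, showed no difference beyond its spread. Hspg2 (ENSMUSG00000028763; chromosome 4, 137468769 to 137570630, plus strand) had 729, 563, 649, 554 and 449 CPM in Sham 16 to Sham 20 and 638, 604, 575, 623 and 775 CPM in PBS 2, 6, 9, 12 and 14. Its log2 fold change was 0.12 ± 0.12 with a 95% interval from −0.13 to 0.38 (adjusted p = 0.355 by edgeR). That interval excludes a rise of the size seen in Lama4, Lamc1 or the nidogens. Scaled by library total it was 0.40 (adjusted p = 0.00583 by edgeR).

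**Figure D2:**
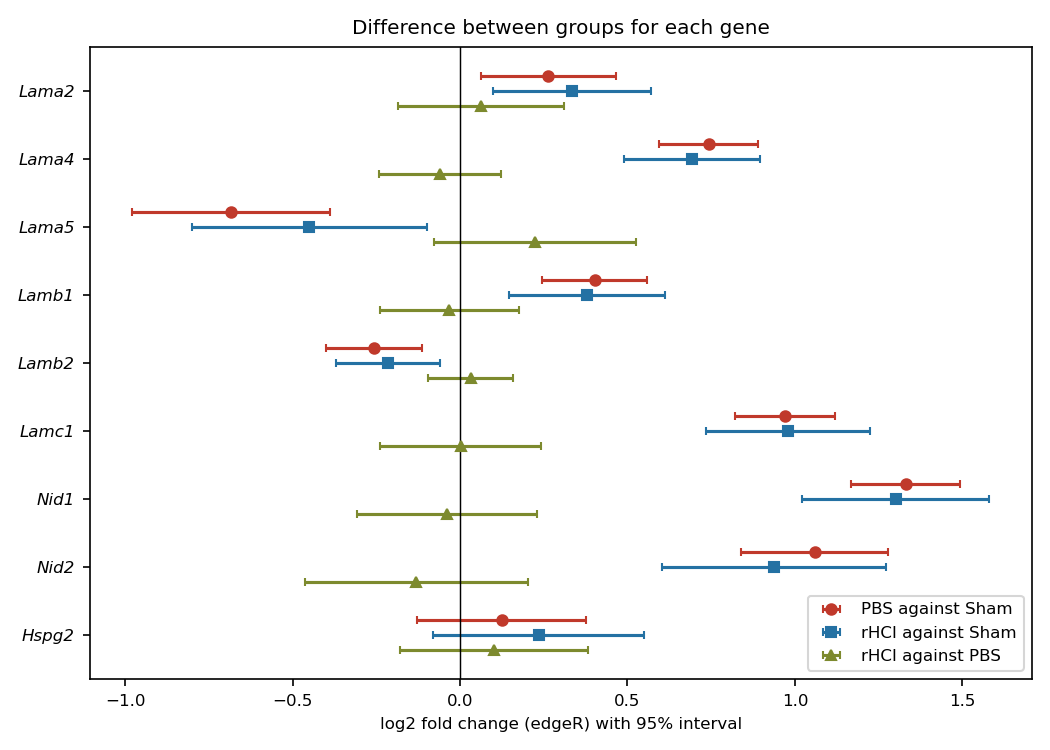
Log2 fold change of each gene (horizontal axis, edgeR on TMM-scaled counts) with its 95% interval for PBS against Sham (circles), rHCI against Sham (squares) and rHCI against PBS (triangles). Nid1, Nid2, Lamc1 and Lama4 lie to the right in both comparisons with Sham, Lama5 and Lamb2 to the left, and every interval of rHCI against PBS includes 0. Scaled by library total the Lamb2 differences from Sham become 0.02 and 0.01.

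Ratios of related chains within a library do not depend on how libraries are scaled. They were tested by exact permutation over libraries, 4 ratios in 3 comparisons, with p-values adjusted over the 12 tests, and 5 against 5 libraries allow no two-sided p below 0.00794. The count ratio of Lamb1 to Lamb2 was 0.329, 0.307, 0.288, 0.342 and 0.265 in Sham 16 to Sham 20 and 0.448, 0.462, 0.503, 0.560 and 0.446 in PBS 2, 6, 9, 12 and 14. The groups did not overlap, and the ratio was 1.58-fold higher in PBS (exact permutation p = 0.00794, adjusted p = 0.019). Per length of the exon union Lamb1 made up 15.8% ± 1.35 of both beta chains in Sham and 22.8% ± 1.73 in PBS hearts (SD, n = 5), so Lamb2 remained the major beta chain by level.

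The ratio of Lama5 to Lama2 fell from 0.884 to 1.34 in Sham to 0.504 to 0.609 in PBS libraries. The fold was 0.524 (exact permutation p = 0.00794, adjusted p = 0.019), again without overlap. Lama4 to Lama2 went the other way, with 0.635 to 0.873 in Sham and 0.801 to 1.16 in PBS libraries, where PBS 14 alone lay inside the Sham range. That was 1.40-fold higher (exact permutation p = 0.0159, adjusted p = 0.0238). Per length of the exon union Lama5 went from 43.8% ± 4.55 of the 3 alpha chains in Sham to 25.5% ± 2.31 in PBS, and Lama4 from 27.8% ± 3.57 to 43.0% ± 3.82. With principal transcript lengths the same shares were 29.8% and 15.5% for Lama5 and 37.5% and 52.0% for Lama4. Lama4 took the larger share in PBS and Lama5 the smaller under both lengths.

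Within the nidogens the rise was uneven. Nid2 to Nid1 was 0.150 to 0.170 in Sham and 0.125 to 0.143 in PBS libraries, a fold of 0.827 (exact permutation p = 0.00794, adjusted p = 0.019). Nid2 was therefore a smaller part of the nidogen transcripts in PBS hearts although both genes rose.

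**Figure D3:**
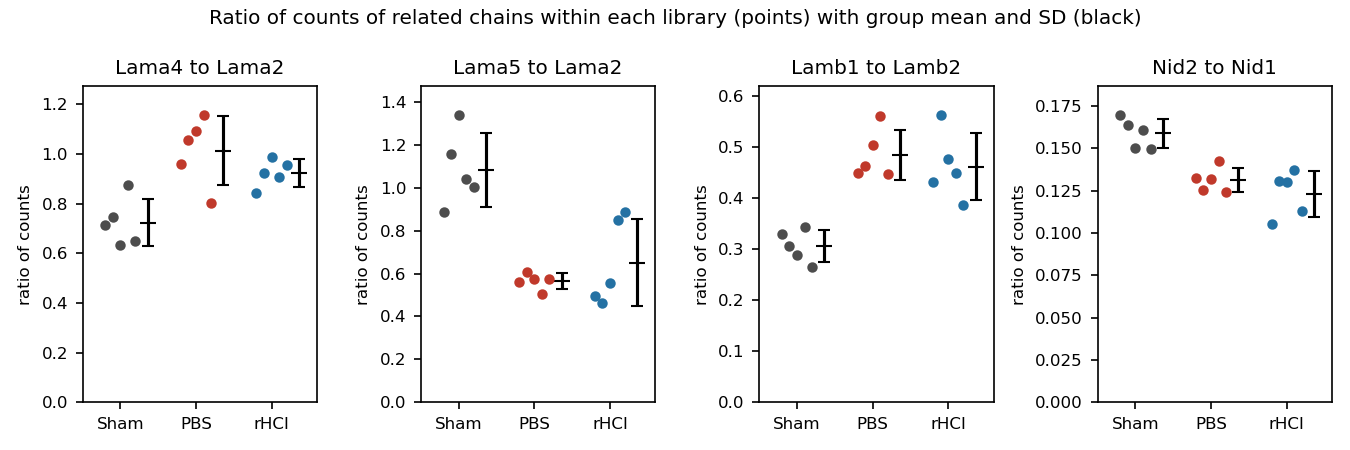
Ratio of counts of 2 related genes within each library (vertical axes, from 0; not corrected for length) for Sham, PBS and rHCI, with the group mean and SD in black. Lamb1 to Lamb2 is above every Sham library in all PBS and rHCI libraries, and in Lama5 to Lama2 rHCI 11 and rHCI 13, at 0.851 and 0.887, stand above the other 3 rHCI libraries.

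Some laminin chains outside the 9 genes, known from epithelial laminins or as rare chains, were also followed. Lamb3, a chain of epithelial laminin, fell from 20.3 ± 1.03 to 10.8 ± 2.92 CPM (SD, n = 5; log2 fold change −0.91 ± 0.14, adjusted p = 7.77e-05 by edgeR). Lamc3 rose from 0.505 ± 0.0298 to 1.45 ± 0.322 CPM. Lama3 had 4.80 ± 0.417 CPM in Sham and 4.31 ± 0.493 in PBS hearts and did not pass, and Lama1, with 18 counts over the 5 Sham libraries, was too low to test.

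Most other basement membrane components were higher in PBS hearts. Of 25 genes, 20 rose and 3 fell, where 36.5% of all genes rose and 34.9% fell. The median log2 fold change of the 25 was 1.02, against −0.01 over all genes. The largest change among the 25 was in Sparc, a collagen-binding matricellular protein, which rose from 360 ± 59.7 to 3034 ± 487 CPM. Next came Frem1 (log2 fold change 2.59 ± 0.20) and Fras1 (2.57 ± 0.17), matrix proteins that anchor epithelia. Both were low in level, from 0.54 to 3.23 CPM for Frem1 and from 0.56 to 3.38 CPM for Fras1. Col4a6, a minor collagen IV chain, followed (2.25 ± 0.17), from 2.31 to 10.9 CPM. Col4a1 and Col4a2, named here for their role as the main collagen IV chains after their values were seen, rose by 1.02 ± 0.10 and 0.87 ± 0.09 on the log2 scale. The genes that fell were Hmcn1, Egflam and Tinagl1, also named after their values were seen. Egflam, which encodes the dystroglycan ligand pikachurin, went from 25.3 ± 2.65 to 12.8 ± 2.57 CPM. Under library totals 21 of the 25 rose and 2 fell, with Tinagl1 no longer passing. On that scale 8938 of all 16207 genes rose and 2610 fell.

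Receptor genes moved in both directions. Of 20 genes for laminin receptors and the dystrophin-glycoprotein complex, 6 rose and 12 fell, where 36.5% of all genes rose and 34.9% fell. The median log2 fold change of the 20 was −0.30, against −0.01 over all genes. Integrin genes were among those that rose, with Itgb4, a laminin-binding beta subunit of epithelia, going from 2.76 ± 0.328 to 9.74 ± 0.832 CPM (SD, n = 5) and Itga2, a collagen and laminin receptor subunit, from 0.539 ± 0.170 to 1.99 ± 0.434. Sgca, a sarcoglycan of the muscle membrane, fell by 0.71 ± 0.07 on the log2 scale. Dag1, which encodes dystroglycan, and Itga7, the laminin-binding integrin alpha subunit of muscle, both named for their role after values were seen, fell by 0.46 ± 0.05 and 0.46 ± 0.08 on the log2 scale. The more abundant integrin genes Itgb1 and Itga6, likewise named after values were seen, rose by 0.40 ± 0.06 and 0.34 ± 0.08. Itgb1 went from 554 to 732 CPM and Itga6 from 87.9 to 112 CPM. Under library totals 8938 of all 16207 genes were higher and 2610 lower, with a median of 0.27. On that scale the receptor list had 8 higher and 8 lower, with a median of −0.02, and Sgca, Dag1 and Itga7 still fell. The cardiomyocyte markers fell with them, and their part was not tested.

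Of 17 genes that attach the laminin-binding glycan to dystroglycan, 3 rose and 11 fell, where 36.5% of all genes rose and 34.9% fell. The median log2 fold change of the 17 was −0.20, against −0.01 over all genes. Gmppb, which makes the mannose donor (0.71 ± 0.08), and Dpm2, a subunit of dolichol mannose synthase (0.42 ± 0.06), rose. When libraries were scaled by their total the glycan list had 6 higher, 2 lower and a median of 0.07. That scale moved all genes upward, to a median of 0.27 with 8938 of 16207 higher and 2610 lower. A change of scale moves all genes by about the same amount. The place of the list below the median of all genes could therefore not change with it. Tested for more than a 1.2-fold change, 4 of the 17 passed, beside 7854 of all 16207 genes. The heparan sulfate list, for the chains that perlecan carries, had 15 higher and 2 lower of 21, with a median of 0.48, and 19 higher and 0 lower under library totals. Its largest rises were in Hpse, which encodes heparanase (2.78 ± 0.16), Hs6st2, a sulfotransferase (2.57 ± 0.21), Xylt1, which starts the chain (2.12 ± 0.09), and Sulf1, which trims sulfates outside the cell (2.04 ± 0.08).

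Against the same Sham libraries, the hydrogel group gave a like picture. Of the 9 genes 6 were higher and 2 lower in rHCI, with 34.1% of 16076 genes called higher and 29.7% lower, 63.9% in all. The groups did not overlap for 4 genes, Lama4, Lamc1, Nid1 and Nid2, and for 49.4% of all genes. Nid1 had 413, 500, 383, 347 and 292 CPM in rHCI 1, 3, 7, 11 and 13, a log2 fold change of 1.30 ± 0.13. Lamc1 had 471, 582, 470, 448 and 357 CPM in rHCI 1, 3, 7, 11 and 13, a log2 fold change of 0.98 ± 0.11. In these genes rHCI 3 was the highest and rHCI 13 the lowest library of its group, and so it was for Lama4, Lamb1 and Nid2. The remaining log2 fold changes were 0.94 ± 0.15 for Nid2, 0.69 ± 0.09 for Lama4, 0.38 ± 0.11 for Lamb1 and 0.34 ± 0.11 for Lama2, with adjusted p from 3.63e-06 to 0.0163 by edgeR for the 6 genes that rose. Among the 4 rHCI and 4 Sham libraries with the shared number, Lama2 did not pass (0.24, adjusted p = 0.101), and 5 of the 9 genes were higher and 2 lower. Hspg2 did not pass (0.23 ± 0.15, adjusted p = 0.175 by edgeR). Under library totals 7 of the 9 genes were called higher and 0 lower, and Hspg2 passed with a log2 fold change of 0.46 (adjusted p = 0.0206 by edgeR), while 8011 of all genes were called higher and 2128 lower in place of 5487 and 4781.

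Lama5 and Lamb2 were the genes that fell in rHCI hearts. Lama5 had 105, 102, 98.1, 157 and 134 CPM in rHCI 1, 3, 7, 11 and 13. The first 3 lay in the PBS range of 86.3 to 127 CPM and rHCI 11 and rHCI 13 in the Sham range. The log2 difference from Sham was −0.45 ± 0.16 (adjusted p = 0.0273 by edgeR). It did not pass without Sham replicate 17 (adjusted p = 0.0529) or 18 (0.0723), without rHCI replicate 1 (0.0646), 3 (0.0595) or 7 (0.0679), or with library totals as scale (−0.23, adjusted p = 0.196). Lamb2 had 390 to 451 CPM in rHCI libraries and a log2 fold change of −0.22 ± 0.07 (adjusted p = 0.0187 by edgeR), which became 0.01 with library totals. The ratio of Lamb1 to Lamb2 was higher than in Sham by 0.59 on the log2 scale, without overlap (exact permutation p = 0.00794, adjusted p = 0.019), and Nid2 to Nid1 0.773-fold, also without overlap and with the same p-values. Lama5 to Lama2 was 0.584-fold (exact permutation p = 0.0159, adjusted p = 0.0238), with rHCI 13 at 0.887 just above the lowest Sham library at 0.884. Among the libraries with the shared number its log2 difference was −0.71, which did not pass (exact permutation, adjusted p = 0.0857). Lama4 to Lama2 was 1.28-fold higher (exact permutation p = 0.0159, adjusted p = 0.0238). In the related lists rHCI hearts had 20 higher and 2 lower of 25 other basement membrane components, 6 and 11 of 20 receptors, 3 and 11 of 17 glycan genes, and 13 and 1 of 21 heparan sulfate genes. Of all 16076 genes 34.1% were higher and 29.7% lower. Under library totals the 4 lists had, in the same order, 21 higher and 1 lower, 7 and 6, 5 and 1, and 19 and 0. On that scale 8011 of all genes were higher and 2128 lower. Tested for more than a 1.2-fold change, 8 of the receptors and 2 of the glycan genes passed, beside 6157 of all 16076 genes.

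Whether the hydrogel changed these genes within infarcted hearts was asked by setting rHCI against PBS. No gene of the 9 passed, and 0 had an unadjusted p under 0.05 by edgeR. Over all 16383 genes tested 0 were called (0%) by edgeR, 579 had an unadjusted p under 0.05 (3.53%), and DESeq2 called 6. The groups overlapped for every one of the 9 genes, and did not overlap for 0.501% of all genes. The median log2 fold change was 0.00 over the 9 genes and 0.00 over all genes.

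The intervals give the range of differences that the spread between the 5 libraries per group allows. Lamb2 was the most tightly bounded, with a log2 fold change of 0.03 ± 0.06 and a 95% interval from −0.09 to 0.16. Lamc1 had 0.00 ± 0.11 (−0.24 to 0.24), Lama4 −0.06 ± 0.08 (−0.24 to 0.12), Lamb1 −0.03 ± 0.10 (−0.24 to 0.18) and Nid1 −0.04 ± 0.12 (−0.31 to 0.23). For Lama4, Lamc1, Nid1, Nid2, Lamb1 and Lamb2 the 95% intervals exclude a change as large as the difference from Sham. For Lamb2 this holds for the TMM-scaled difference. Nid2 had −0.13 ± 0.15 (−0.46 to 0.20), Lama2 0.06 ± 0.11 (−0.19 to 0.31) and Hspg2 0.10 ± 0.13 (−0.18 to 0.38). Lama5 had the largest positive value, 0.22 ± 0.14, with an interval from −0.08 to 0.52 that leaves room for an increase of up to 43.8% or a fall to −5.22%. Of the 12 ratio tests, none of the 4 for rHCI against PBS passed, with exact permutation p from 0.246 to 0.516 and adjusted p from 0.328 to 0.516. In the 5 related lists, 0 genes of any list passed by edgeR. Without PBS replicate 14 the Lama4 to Lama2 ratio alone passed, at −0.21 on the log2 scale (exact permutation, adjusted p = 0.0423).

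Libraries of the same group also differed among themselves, and the 9 genes did not all follow the same pattern. Log2 CPM was centred on each group's mean, and each of the 36 pairs was correlated over the 15 libraries, with 100000 permutations within groups. The strongest pair was Lamb1 with Lamc1, chains of the same laminin molecules, with Pearson r = 0.965 (permutation p = 8e-05, adjusted p = 0.00264 over 36 pairs) and Spearman rho = 0.871 (permutation p = 0.00012, adjusted p = 0.00216). Without the 2 libraries farthest from the median of Lamb1, r was 0.937. Lama4, Lamb1, Lamc1, Nid1 and Nid2, the 5 genes that rose in PBS hearts without overlap, had r from 0.905 to 0.965 and rho from 0.771 to 0.889 in their 10 pairs. Without the 2 farthest libraries the lowest of these r was 0.746, and within the 12 libraries with the shared number they were 0.915 to 0.969. This set of 5 was put together after its values were seen.

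Lama5 and Lamb2 stood outside that pattern. Lamb2 had r from 0.085 with Nid2 to 0.326 with Lamb1, and none of its pairs with the 5 genes passed (permutation, adjusted p from 0.356 to 0.786 for r). Lama2 passed for r with Lamc1 alone of the 5 (r = 0.714, permutation, adjusted p = 0.0234). For Lama5, r with the same 5 genes was −0.318 to −0.096, its rho −0.489 to −0.168, and none of the 5 passed (permutation, adjusted p from 0.406 to 0.789 for r). Its highest r was with Lamb2, at 0.655 (permutation p = 0.0222, adjusted p = 0.047) with rho = 0.629 (permutation p = 0.0264, adjusted p = 0.0634), which dropped to r = 0.461 without the 2 farthest libraries and was 0.761 in the 12 libraries with the shared number. Lama2 was closest to Hspg2, with r = 0.828 and rho = 0.839 (permutation p = 0.00119 and 0.00071, adjusted p = 0.00389 and 0.00422) and r = 0.755 without the 2 farthest libraries. In all, 17 of the 36 pairs passed for r. How many pairs of other genes would pass was not tested, so this count does not set these genes apart. Among genes with a mean of at least 5 CPM, Lamb1 and Lamc1 had their highest r with each other. Every other gene of the 36 pairs had its highest r with a gene outside them, such as Nid1 with Stab1 (0.97). The points of each pair share library, depth, scaling and the cell content of the tissue. Of the rHCI libraries, rHCI 3, highest for the 5 genes that rose without overlap, had the lowest cardiomyocyte marker sum (30730 CPM). The library lowest for them, rHCI 13, had the highest (47800 CPM). In Sham, the library highest in these markers, Sham 16 (69050 CPM), was also highest in Lamc1 (256 CPM). The part of cell content in these r was not tested.

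**Figure D4:**
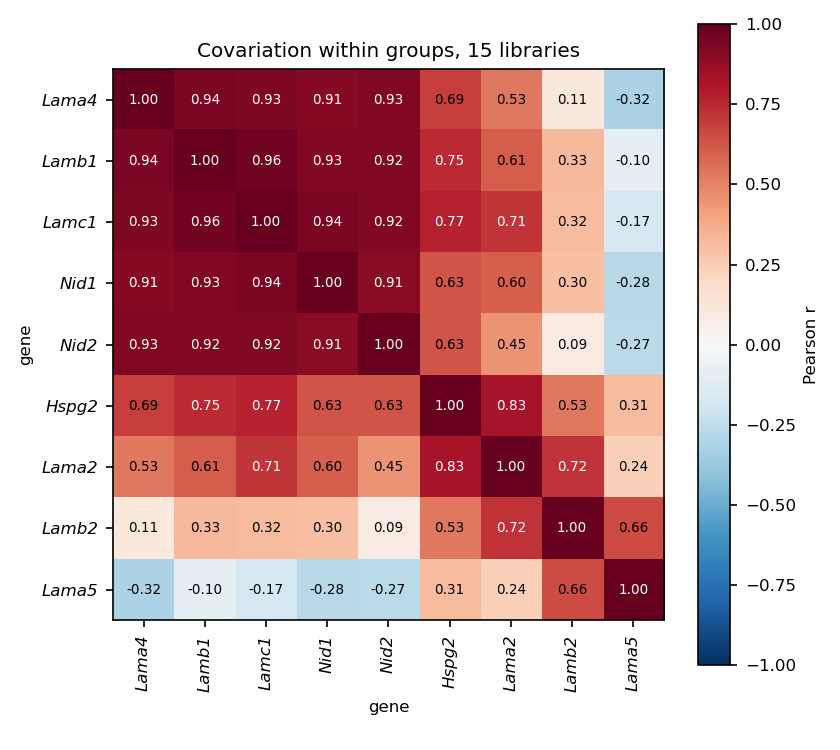
Pearson r of log2 CPM between each pair of genes over 15 libraries after subtraction of group means (both axes list the genes; colour and number give r). Lama4, Lamb1, Lamc1, Nid1 and Nid2 form a block with r of 0.905 or more, and Lama5 has r below 0 with each of them.

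The genes most like each member were taken from 10339 genes with a mean of at least 5 CPM by the same centred r, as a description without a test. For Nid2 these were Flna, a filamin (r = 0.966), and the collagen IV genes Col4a2 (0.959) and Col4a1 (0.958), which share a basement membrane with it. For Nid1 they were Stab1, a scavenger receptor of endothelium and macrophages (0.97), Vcan, the proteoglycan versican (0.97), and Plat, tissue plasminogen activator (0.961). Lama4 was most like Vcan (0.946), Lamb1 (0.943) and Cd93, an endothelial and myeloid surface protein (0.942). Lamc1 followed Lamb1 (0.965), Vcan (0.963) and Nav1 (0.958), and Lamb1 followed Lamc1 (0.965), Sh3pxd2a, a podosome scaffold (0.952), and Ptk2, focal adhesion kinase (0.945).

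The remaining members had other neighbours, none of them among the 9 genes or the related lists. These were Smg6 (0.909), Cobll1 (0.908) and Vps13a (0.901) for Lama5, Prrc2c (0.886), Abca8b (0.88) and Trrap (0.871) for Lama2, Atrx (0.897), Neo1 (0.884) and Ankhd1 (0.858) for Lamb2, and Stard9 (0.919), Mast4 (0.908) and Zmiz1 (0.892) for Hspg2. Gene length was set beside the group differences without a test. The 1201 genes with an exon union of 10000 bases or more and at least 5 CPM, the class that Lama2, Lama4, Lama5 and Hspg2 belong to, had a median log2 fold change of −0.04 between PBS and Sham, and the 1179 genes under 2000 bases −0.20.

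Markers of the cells that make basement membranes moved to different degrees. The 9 endothelial markers, Pecam1 and Cdh5 among them, summed to 886 to 1014 CPM in Sham, 987 to 1123 in PBS and 907 to 1178 in rHCI libraries. Between PBS and Sham 5 of the 9 rose and 1 fell, with a median log2 fold change of 0.20, beside log2 fold changes of 0.74 for Lama4 and −0.68 for Lama5. Of all genes 36.5% rose and 34.9% fell. Under library totals 8 endothelial markers rose and 0 fell, with a median of 0.48. That scale gave all genes a median of 0.27, with 8938 of 16207 higher and 2610 lower. The 10 smooth muscle and pericyte markers summed to 1499 to 1739 CPM in Sham and 1288 to 1438 in PBS libraries, with 5 higher and 3 lower. Their median log2 fold change was 0.19. Abcc9, 1 of the 3 lower, went from a mean of 652 to 303 CPM. The mean sum of the 10 went from 1608 to 1342 CPM. Resting fibroblast markers, 5 of 8 higher and 3 lower, summed to 1984 to 2212 CPM in Sham and 2685 to 2998 in PBS libraries. Activated fibroblast markers summed to 468 to 681 CPM in Sham, 10530 to 15750 in PBS and 9503 to 15970 in rHCI libraries, with 8 of 8 higher and a median of 4.46. Macrophage markers, 8 of 8 higher, went from 162 to 210 CPM in Sham to 489 to 657 in PBS libraries. Epicardial and mesothelial markers, 6 of 6 higher, went from 17.7 to 28.9 CPM in Sham to 58.6 to 115 in PBS libraries. The 6 Schwann cell markers summed to 14.8 to 20.3 CPM in Sham and 11.8 to 14.5 in PBS libraries, with 0 higher and 3 lower, the 6 adipocyte markers to 3.03 to 20.2 and 5.31 to 41.5 CPM, with 0 higher and 1 lower, and the 5 erythroid markers to 112 to 231 and 92.4 to 214 CPM. No list of these had a marker at 0 in all libraries. The part of these cells in the changes of the 9 genes was not tested. Without PBS replicate 6, the library with lung markers, the counts of 6 higher and 2 lower genes stood as they were.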

How the data were processed

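Stranded mRNA libraries of the left ventricle were sequenced, per the labels' protocols, in 3 groups of 5. The deposited values are raw counts per gene, and 0 columns lacked a matched sample. Trimmomatic, STAR, edgeR and Cufflinks were used, with GRCm38 and mm10, per the submitters' processing notes. Not given in the sources used here are the counting tool, its strand setting and the annotation. Positions and lengths came from GENCODE M21 (46574 of 47069 identifiers matched).

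Groups came from the titles. Nothing says that libraries are separate animals, so p-values may measure technical spread only. No pair of replicates was closer than sampling noise (lowest chi-square per gene 10.7 over 30 pairs). Each pair of groups was tested on its 10 libraries with edgeR 4.0.16 in R 4.3.3 (TMM, filterByExpr, glmQLFit, glmQLFTest, two-sided, Benjamini-Hochberg over all genes tested). Levels are CPM with TMM factors from all 15 libraries. Ratios used SciPy 1.17.1, and likeness log2(CPM + 0.5). On simulated counts with 200 genes changed 2-fold among 16207 genes, 87% were recovered for PBS against Sham, with 12 false calls. Smaller changes, or changes in most genes at once, were not simulated.

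The 9 genes and all lists were chosen with earlier results of these data known. The lists under library totals were added after the data were seen. All 9 were named, with up to 4 genes per related list with the largest called change at 1 CPM or more, and the 3 genes most like each of the 9. Some genes that this rule names are not reported here. Alternatives were RLE factors, library totals, DESeq2 1.42.0, 2 other filters, all 15 libraries in 1 fit, an unexplained number in the descriptions as covariate, or the 12 libraries that share its value alone, a minimum fold change of 1.2, and each replicate left out. For 3 list genes the table carried an older symbol.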

Additional observations from a re-analysis of the deposited data

Results flagged for a closer look

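In 2 of 39 groups of 5 libraries 1 library lay far from the other 4, by Dixon's ratio of the gap to the range, where chance gives about 1 in 20. Lama4 in PBS 12 was the highest of its group with 198.1 CPM, and Lamb1 in Sham 20 the lowest of its group with 120.6 CPM.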

How the results depend on the processing

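Each of the 9 genes was refitted under 19 alternatives per comparison. For PBS against Sham, 165 of 171 refits kept direction and side of the threshold, for rHCI against PBS 171 of 171, and for rHCI against Sham 158 of 171. With library totals as scale the Lamb2 log2 fold change reversed to 0.0176 in PBS and 0.0067 in rHCI against Sham, and neither passed. The scale itself moved all genes by 0.27 and 0.22. Against a minimum change of 1.2-fold, 4 of the 9 genes were called in rHCI against Sham, and 6157 of all genes against 10268. The Lama5 to Lama2 ratio in rHCI against Sham was −0.71 on the log2 scale among the libraries with the shared number in their descriptions and no longer passed (exact permutation, adjusted p = 0.0857), where fewer libraries also allow only larger p-values. The log2 difference of Lama4 to Lama2 between rHCI and PBS ran from −0.2061 to −0.0733 as replicates were left out, and passed without PBS replicate 14 (exact permutation, adjusted p = 0.0423). The cause was not tested. Over all genes, rHCI against PBS gave 6 calls with DESeq2 and 3 by edgeR without rHCI replicate 13. No paired analysis was possible because the groups share no replicate numbers.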
